A study of Homo sapiens with 5 samples.

Results

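The B cell receptor pathway was followed through 10 genes in KM-H2, an established cell line of Hodgkin lymphoma cells of B cell origin. The genes were fixed by name, with earlier results of these data known. They are the receptor chains CD79A and CD79B, the kinases LYN, BLK, SYK and BTK, and the adaptor BLNK. The others are the exchange factor VAV1, the phospholipase PLCG2 and the protein kinase C gene PRKCB. All 10 had a probe set with 1 gene symbol, out of 7713 genes measured, and none had more than 1. Cells had been kept for 16 hours in medium with 30 uM LY294002, an inhibitor of phosphoinositide 3-kinase (PI3K) that also acts on other targets, or in the same medium with the solvent DMSO. Affymetrix arrays gave 3 DMSO samples and 2 LY294002 samples; the design of the series names triplicates and 1 array left out for high background. Nothing in the labels says that arrays of a group came from separate cultures, so the spread between them may be technical. The 5 arrays come from 1 line, and levels are of RNA from the whole culture, so that fewer cells with a transcript and less transcript per cell cannot be told apart.

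In a B cell, antigen binding lets LYN and BLK phosphorylate the tails of CD79A and CD79B, which recruit SYK. SYK phosphorylates BLNK, and BLNK then holds BTK, PLCG2 and VAV1 together so that PLCG2 can be activated. PLCG2 makes diacylglycerol, and its activity also leads to the release of calcium. Diacylglycerol activates protein kinase C beta, the product of PRKCB, which signals to NF-kB. PI3K acts beside this chain, because its lipid product brings BTK and PLCG2 to the membrane. Hodgkin cells are known for having lost much of the B cell programme, including the receptor and many of its signalling proteins.

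BLNK was the 1 gene of the 10 that passed the adjusted threshold of 0.05. It was 2.78-fold lower with LY294002 (log2 difference -1.48 ± 0.15, SE; adjusted p = 0.0419 by limma, a linear model fitted over all probe sets). The other 9 differed by -0.15 to 0.06 on the log2 scale, and limma called 0 of them (1, PLCG2, had an unadjusted p under 0.05). The call of BLNK was lost without any 1 array, as given below. Outside the 10 genes, 3 of the 115 measured genes of the wider pathway passed, where 0.908% of all genes did. SPIB, an Ets family transcription factor of B cells, and CR2, the complement receptor that works as a co-receptor, fell. IRF4, a transcription factor of activated B cells and plasma cells, rose. Without DMSO replicate 1, 2 or 3, limma called 0 of the 115.

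The reference sequence before the start sites of BLNK, SPIB and CR2 is shown because these are the genes of B cell function in this account that limma called lower. Each run holds the 250 bases before the start site given by RefSeq on GRCh38.p14, read 5′ to 3′ along the gene. Capitals mark GGAA, the core of Ets family sites, and CAGGTG, 1 form of the E-box, each with its reverse complement, TTCC or CACCTG. Other forms of the E-box were not searched and are not marked.
BLNK (chr10:96271570-96271819, minus strand): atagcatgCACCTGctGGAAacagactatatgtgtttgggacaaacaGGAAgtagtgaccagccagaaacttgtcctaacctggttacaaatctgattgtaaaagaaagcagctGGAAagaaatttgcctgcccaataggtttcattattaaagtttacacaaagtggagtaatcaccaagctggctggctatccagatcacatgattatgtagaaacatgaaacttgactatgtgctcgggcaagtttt
SPIB (chr19:50418688-50418937, plus strand): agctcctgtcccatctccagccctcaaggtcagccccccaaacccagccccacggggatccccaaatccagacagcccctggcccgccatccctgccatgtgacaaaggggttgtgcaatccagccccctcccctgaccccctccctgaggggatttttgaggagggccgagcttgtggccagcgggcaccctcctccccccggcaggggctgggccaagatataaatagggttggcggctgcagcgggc
CR2 (chr1:207454078-207454327, plus strand): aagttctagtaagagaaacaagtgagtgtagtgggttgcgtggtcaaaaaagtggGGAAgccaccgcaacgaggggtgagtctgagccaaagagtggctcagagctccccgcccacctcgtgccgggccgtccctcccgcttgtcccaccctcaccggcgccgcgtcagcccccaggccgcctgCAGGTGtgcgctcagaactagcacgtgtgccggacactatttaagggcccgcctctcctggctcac
The BLNK window held GGAA at 3 places, beginning 234, 203 and 136 bases before the start. It held CAGGTG, as CACCTG, at 1 place, beginning 242 bases before the start. CR2 had 1 GGAA, 195 bases before its start, and 1 CAGGTG, 66 bases before it. SPIB had neither. Of all 35116 RefSeq windows of this length, 92.7% held GGAA and 17.5% held CAGGTG on either strand. The longer GAGGAA, which contains GGAA and is the form preferred by PU.1 and SPIB proteins, was in none of the 3 windows and in 23.6% of all windows. The octamer ATGCAAAT, bound by OCT factors in B cells, was in none of the 3 and in 1.63% of all. RefSeq windows matched 7 of the 10 genes, with several start sites for SYK and BTK. LYN, BLK and CD79B had no entry. GGAA was found in a window of 6 of the 7 genes, GAGGAA in 3 (SYK, BTK and VAV1), CAGGTG in 5 and the octamer in 1, PRKCB. These matches describe the letters only.

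Medians of the arrays were 6.26 to 6.29 in log2 units, and the upper quartile was 7.69 on LY294002 replicate 1 against 7.59 to 7.62 on the other arrays. Of 10 Hodgkin cell markers, 7 were in the high level class defined below, among them TNFRSF8, the gene of CD30. CCL17 and FUT4, which makes the CD15 epitope, were in the low class. Of these 10 markers limma called 1, IRF4, as higher, and 0 as lower. At an unadjusted p under 0.05 there were 4, 3 higher and 1 lower, where 17.1% of all genes reached that. The lower 1 was TNFRSF8, with a log2 difference of -0.68. Of the markers of other cell types, 8 T cell, 6 NK cell, 7 myeloid, 5 stromal and 5 epithelial genes were measured, and limma called 0 of these 31 (3 had an unadjusted p under 0.05). The mean level of the T cell list was 6.70 on each DMSO array and 6.54 and 6.64 on the LY294002 arrays. All 8 differences were below 0 (7 of 8 after cyclic loess, another normalization between arrays), as were 55.5% of those of all genes. Its brightest gene, CD3D, was in the high class. The NK cell list lay at 5.69 to 5.76 with DMSO and 5.63 to 5.69 with LY294002, the myeloid list at 5.10 to 5.16 and 5.01 to 5.07, the stromal list at 5.39 to 5.47 and 5.25 to 5.32, and the epithelial list at 5.01 to 5.09 and 5.01 to 5.05. Their part in the results below was not tested.

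Levels were put in 3 classes. A gene was in the low class if its mean over the 5 arrays was at most 7.05, the 90th percentile of 23 measured genes of other organs such as ALB and INS. It was in the high class above 7.61, the upper quartile of all probe sets. All 10 genes were in the low class, as were 65.1% of all 7713 genes. Their means ran from 4.97 for BLK to 6.81 for LYN, and the organ-restricted genes had a median of 5.57 and a range of 4.10 to 8.13. On the DMSO arrays alone BLNK reached the middle class, with a mean of 7.14 against a limit of 7.10, and the other 9 stayed low. With the 40th percentile of all probe sets, 5.84, as the limit, 5 genes were low, namely SYK, BTK, BLK, CD79B and PRKCB. The level of a probe set also depends on its probes, so the genes are not ranked by level, and a transcript in the low class is not shown to be absent. How far a fall can show on a probe set near its background was not tested.

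**Figure D1:**
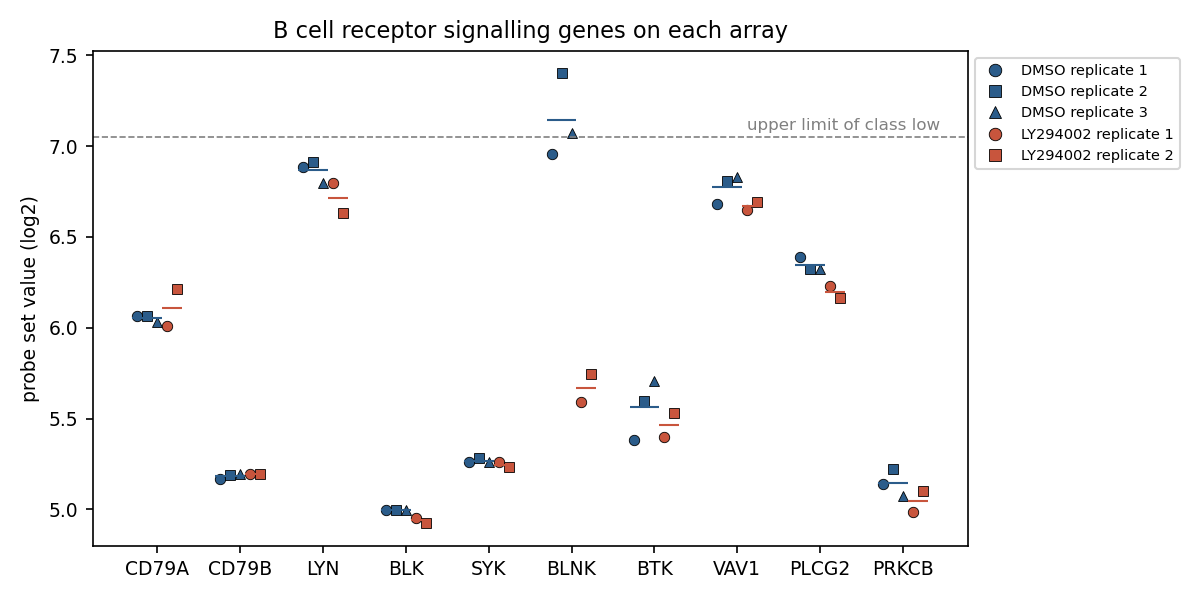
Probe set values on the log2 scale (vertical axis) of the 10 receptor signalling genes on each of the 5 arrays; short lines are group means and the dashed line is the limit of the low level class, 7.05. BLNK is the 1 gene whose LY294002 arrays (5.59 and 5.75) lie far below its DMSO arrays (6.96 to 7.40).

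CD79A and CD79B form the signalling part of the receptor and carry the motifs that SYK binds. CD79A stood at 6.06, 6.06 and 6.03 on DMSO replicates 1, 2 and 3 and at 6.01 and 6.21 on LY294002 replicates 1 and 2. One LY294002 array was thus below and the other above all DMSO arrays. The log2 difference was 0.06 ± 0.07 (SE; 95% interval -0.13 to 0.24; limma adjusted p = 0.658), and it was -0.046 without LY294002 replicate 2. CD79B stood at 5.17, 5.19 and 5.19 with DMSO and at 5.19 on both LY294002 arrays. DMSO replicate 3 and both LY294002 arrays hold the identical value, and the groups overlap. The difference was 0.01 ± 0.03 (-0.06 to 0.08; limma adjusted p = 0.848). Of the immunoglobulin genes, the surrogate light chain gene IGLL1 and the joining chain gene JCHAIN were measured, both in the low class. By limma 0 of these 2 passed, and 0 had an unadjusted p under 0.05.

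LYN and BLK are the Src family kinases that start the signal, and LYN also phosphorylates inhibitory receptors. LYN was at 6.89, 6.91 and 6.80 on the DMSO arrays and at 6.80 and 6.63 on the LY294002 arrays. DMSO replicate 3 and LY294002 replicate 1 have the identical value, so the groups touch, with LY294002 replicate 2 the lowest. The difference was -0.15 ± 0.07 (-0.33 to 0.03; limma adjusted p = 0.373). BLK was at 4.995 on all 3 DMSO arrays, which hold 1 identical value, and at 4.95 and 4.92 on the LY294002 arrays. Its groups do not overlap, but the gap is small, at -0.06 ± 0.03 (-0.13 to 0.02; limma adjusted p = 0.405).

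SYK is the kinase that docks on the receptor chains, and BTK the Tec family kinase that activates PLCG2. SYK was at 5.26, 5.28 and 5.26 with DMSO and at 5.26 and 5.23 with LY294002, where 3 of the 5 arrays share 1 value. Its difference was -0.02 ± 0.03 (-0.09 to 0.06; limma adjusted p = 0.714), and it turned to 0.0043 after cyclic loess. BTK was at 5.38, 5.60 and 5.71 with DMSO and at 5.40 and 5.53 with LY294002. The DMSO arrays alone span more than the gap between the groups, and both LY294002 arrays lie within the DMSO range. Its difference was -0.10 ± 0.11 (-0.39 to 0.20; limma adjusted p = 0.642), the widest interval of the 9 genes.

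BLNK is the adaptor that links SYK to the enzymes downstream. Its probe set was at 6.96, 7.40 and 7.07 on DMSO replicates 1, 2 and 3, and at 5.59 and 5.75 on LY294002 replicates 1 and 2. The highest LY294002 array was below the lowest DMSO array, and the gap between them exceeds the whole range of the DMSO arrays. The mean of the DMSO arrays was 7.14 ± 0.23 (SD, n = 3). That of the LY294002 arrays was 5.67 ± 0.11 (SD, n = 2). The level with LY294002 was 36.0% of that with DMSO, and the 95% interval of the log2 difference was -1.87 to -1.08. BLNK had the third largest fall of the 23 genes called lower, after TFEC and SLC6A4. The name of its probe set ends in s_at, which marks probes that can match several transcripts. The call rests on all 5 arrays. Without DMSO replicate 1, 2 or 3 the difference was -1.57, -1.35 and -1.51 (limma adjusted p = 0.0994, 0.126 and 0.199), and without LY294002 replicate 1 or 2 it was -1.40 and -1.55 (0.184 and 0.0935). In those 5 fits 0 to 4 of all genes passed, and 946 to 2085 had an unadjusted p under 0.05.

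VAV1, PLCG2 and PRKCB act downstream of BLNK. VAV1, which activates RAC, was at 6.68, 6.81 and 6.83 with DMSO and at 6.65 and 6.69 with LY294002. The LY294002 arrays lie at the low end, and DMSO replicate 1 falls between them. The difference was -0.10 ± 0.06 (-0.25 to 0.05; limma adjusted p = 0.438). PLCG2 was at 6.39, 6.32 and 6.32 with DMSO, the last 2 identical, and at 6.23 and 6.16 with LY294002. The groups do not overlap. The difference of -0.15 ± 0.04 has a 95% interval of -0.25 to -0.04 and an unadjusted limma p of 0.0163, but an adjusted p of 0.177. PRKCB was at 5.14, 5.22 and 5.07 with DMSO and at 4.98 and 5.10 with LY294002, with overlapping groups. Its difference was -0.10 ± 0.06 (-0.27 to 0.07; limma adjusted p = 0.452).

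**Figure D2:**
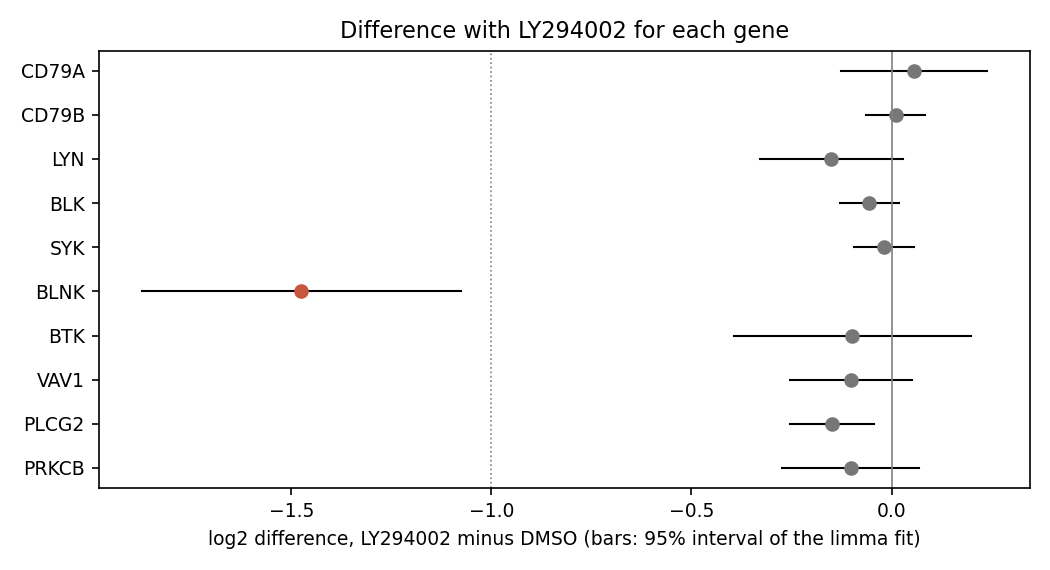
Log2 difference of LY294002 minus DMSO (horizontal axis) for each of the 10 genes, with the 95% interval of the limma fit as a bar; the dotted line marks -1. The interval of BLNK ends at -1.08, and the lowest bound among the other 9 genes is -0.39, for BTK.

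The 10 genes were chosen with earlier results of these data known, so setting them against all genes is a description and no test. Of the 10, 1 (BLNK) passed as lower and 0 as higher. Of all genes 0.298% passed as lower, 0.609% as higher and 0.908% in either direction. At an unadjusted limma p under 0.05 there were 2, BLNK and PLCG2, both lower, where 17.1% of all genes reached that in either direction, 6.5% as lower and 10.6% as higher. Both LY294002 arrays lay below all DMSO arrays for 3 genes, BLNK, BLK and PLCG2, as for 13.4% of all genes, and above them for 0, as for 16.2%. The difference was below 0 for 8 of the 10 genes (7 after cyclic loess) and for 55.5% of all genes. The median difference was -0.10 over the 10 genes and -0.01 over all genes. For the 9 genes without BLNK it was -0.10, with 7 of 9 below 0. The organ-restricted genes had a median of -0.07 with 19 of 23 below 0 and a range of -0.14 to 0.10, and all 5021 genes of the low class had a median of -0.02 with 62.2% below 0. The 95% intervals of the 9 genes hold no log2 difference below -0.39, but how far a fall shows in the low class was not tested. Whether the change of BLNK differs from that of the other genes was not tested either.

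**Figure D3:**
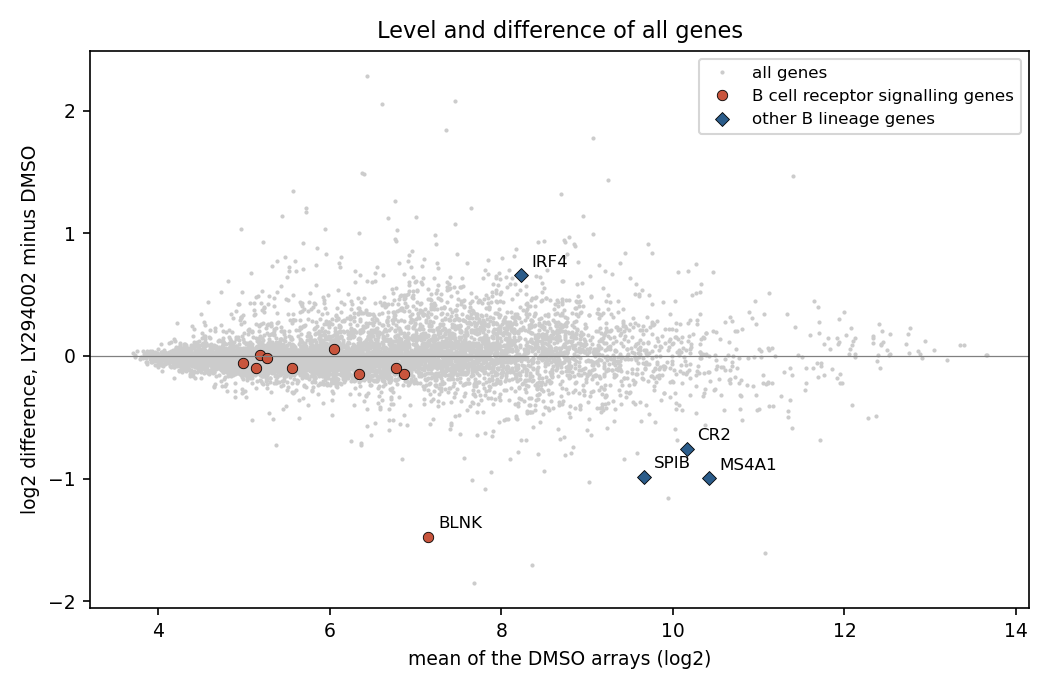
Log2 difference of LY294002 minus DMSO (vertical axis) against the mean of the DMSO arrays (horizontal axis, log2) for all 7713 genes, with the 10 receptor signalling genes and 4 other B lineage genes marked. These 4, SPIB, CR2, MS4A1 and IRF4, were marked with earlier results known and do not stand for their lists. The median difference was -0.11 for the co-receptor and surface list and -0.03 for the transcription factor list. BLNK lies at 7.14 and -1.48, while the other 9 genes lie close to 0 at DMSO means below 6.9.

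The genes most like BLNK were taken as the 5 with the smallest distance over the 5 arrays, after each gene's DMSO mean was subtracted. They were MMP12, a macrophage metalloelastase gene, at a distance of 0.47, SLC6A4, the serotonin transporter gene, at 0.49, PCP4, a calmodulin-binding protein gene, at 0.52, the galectin gene LGALS2 at 0.63 and the transcription factor gene TFEC at 0.64. With only 5 arrays, this likeness is mostly a fall of similar size. MMP12 stood at 10.68, 11.35 and 11.18 with DMSO and at 9.62 and 9.29 with LY294002, so that DMSO replicate 1 was the lowest DMSO array in MMP12 as in BLNK. Its difference was -1.61 ± 0.23 (limma adjusted p = 0.0718) and did not pass. The 4 others fell, with log2 differences of -1.71 for SLC6A4, -1.16 for PCP4, -1.09 for LGALS2 and -1.85 for TFEC. In all 5 genes both LY294002 arrays lay below the DMSO arrays, which follows from choosing them by their distance to BLNK. MMP12, SLC6A4 and PCP4 were in the high class, LGALS2 in the middle class and TFEC in the low class. On the DMSO arrays alone all 5 were in the high class.

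**Figure D4:**
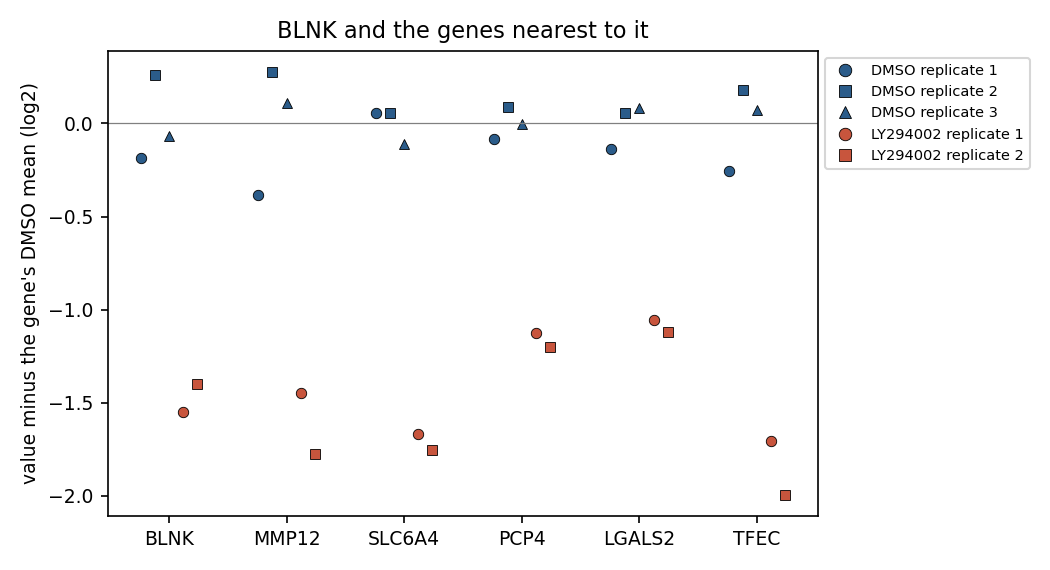
Value on each array minus the gene's own DMSO mean (vertical axis, log2) for BLNK and the 5 genes nearest to it. BLNK lies at -1.55 and -1.40 on the LY294002 arrays, between TFEC, which lies lower, and PCP4 and LGALS2, which lie nearer to 0.

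The wider pathway was described with 12 lists of co-receptors, adaptors, inhibitors, related kinases, signalling branches, transcription factors and induced genes. Of 159 genes, 115 were measured; 1 rose (IRF4), 2 fell (SPIB and CR2) and 112 did not pass. Of all genes 0.609% passed as higher and 0.298% as lower. The median difference of the 115 genes was 0.0046, against -0.01 for all genes. At an unadjusted p under 0.05 there were 31 of the 115, 14 lower and 17 higher, against 6.5% and 10.6% of all genes. Without DMSO replicate 1, 2 or 3, 0 of the 115 passed in limma. In these fits 31, 30 and 22 of the 115 had an unadjusted p under 0.05, as had 1165, 994 and 946 of all 7713 genes. Among the 15 adaptors measured 0 passed, and 3 had an unadjusted p under 0.05, where 17.1% of all genes reached that. LCP2, the adaptor that holds the place of BLNK in T cells, was at 4.45, 4.50 and 4.45 with DMSO and at 4.45 and 4.31 with LY294002, in the low class, with a difference of -0.09 ± 0.05 (limma adjusted p = 0.448). LAT2, an adaptor of B and myeloid cells, is named because of its values. Its difference was -0.26 ± 0.05 (limma adjusted p = 0.112).

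Of 11 co-receptor and surface genes, CR2 fell and 10 did not pass. CR2 stood at 10.14, 10.24 and 10.12 with DMSO and at 9.52 and 9.30 with LY294002, all in the range of bright probe sets, and the groups do not overlap. It fell by 0.76 ± 0.08 (SE; limma adjusted p = 0.0437). MS4A1, the gene of CD20, was at 10.57, 10.43 and 10.24 with DMSO and at 9.59 and 9.25 with LY294002. The groups do not overlap, but the difference of -0.999 ± 0.15 did not pass (limma adjusted p = 0.073). It passed under 5 alternatives, namely cyclic loess, quantile normalization, median centring, and without dim or tied probe sets.

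Of 11 inhibitor genes 0 passed; 5 of them had an unadjusted p under 0.05 as lower and 1 as higher, against 6.5% and 10.6% of all genes. CD22, CD72 and FCGR2B are also on the co-receptor list. INPP5D, the lipid phosphatase SHIP that removes the product of PI3K, was at 8.70, 8.87 and 8.81 with DMSO and at 8.43 and 8.22 with LY294002. The LY294002 arrays are the lowest 2, and the difference was -0.47 ± 0.09 (limma adjusted p = 0.0994). FCGR2B, the inhibitory Fc receptor that recruits SHIP, is also named because of its values. Its difference was -0.68 ± 0.17 (limma adjusted p = 0.168), with LY294002 replicate 2 at 7.36 and replicate 1 at 7.86. PTPN6, the phosphatase SHP-1, was in the low class at -0.18 ± 0.05 (limma adjusted p = 0.167).

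Among 10 measured relatives of the kinases, of VAV1 and of PLCG2, 0 passed in limma and 1 had an unadjusted p under 0.05. Of their differences 8 of 10 were below 0 (9 of 10 after median centring). Of all genes 17.1% had such a p and 55.5% had a difference below 0. PLCG1, the relative of PLCG2, was at 7.71, 7.62 and 7.79 with DMSO and at 7.71 on both LY294002 arrays, in the high class, with a difference of 0.0038 ± 0.06 (-0.15 to 0.15; limma adjusted p = 0.979). FYN, a Src family kinase named because of its values, was at 7.26, 7.32 and 7.32 with DMSO and at 7.91 and 7.69 with LY294002. It was 0.50 ± 0.07 higher without passing (limma adjusted p = 0.0732), while LYN and BLK stood at -0.15 and -0.06.

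In the branches downstream, 0 of 7 PI3K and AKT genes, 0 of 13 genes of protein kinase C and the NF-kB branch, 0 of 11 calcium and NFAT genes, 0 of 6 RAS and ERK genes and 0 of 7 RAC and actin genes passed in limma. The counts at an unadjusted p under 0.05 were 4, 1, 2, 1 and 2 in the same order, where 17.1% of all genes reached that. Their median differences were 0.13, 0.06, 0.10, 0.15 and -0.01. PIK3CD, the PI3K catalytic subunit prominent in lymphocytes, was at 8.96, 8.82 and 8.90 with DMSO and at 9.52 and 9.23 with LY294002. Both LY294002 arrays were above the DMSO arrays, and the difference of 0.49 ± 0.10 did not pass (limma adjusted p = 0.119). Of the calcineurin genes, PPP3CA and PPP3CB, named because of their values, were 0.61 ± 0.12 and 0.56 ± 0.10 higher (limma adjusted p = 0.113 and 0.0976). The calcineurin genes PPP3CC and PPP3R1 stood at -0.07 and 0.16 (limma adjusted p = 0.474 and 0.451), with overlapping groups. Of 13 genes known to be induced by the receptor, 0 passed in limma and 4 had an unadjusted p under 0.05, all higher, as had 10.6% of all genes. IER3, an early response gene named because of its values, had the largest difference of the wider pathway. It was at 7.17, 7.59 and 7.62 with DMSO and at 8.61 and 8.46 with LY294002, and was 1.07 ± 0.16 higher without passing (limma adjusted p = 0.0758). The median difference of the 13 induced genes was 0.046, and 9 of 13 differences were above 0 (8 after cyclic loess or median centring, 7 after quantile normalization). Of all 7713 genes 3436 were above 0.

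Of 12 transcription factors of the B lineage, SPIB fell, IRF4 rose and 10 did not pass. SPIB was at 9.62, 9.63 and 9.74 with DMSO and at 8.72 and 8.63 with LY294002, which is a fall by 0.98 ± 0.05 (limma adjusted p = 0.0168). IRF4 was at 8.15, 8.35 and 8.18 with DMSO and at 8.90 and 8.87 with LY294002, a rise of 0.66 ± 0.07 (limma adjusted p = 0.0473). In both genes the groups do not overlap. PAX5, EBF1 and ZAP70 were not analysed here.

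**Figure D5:**
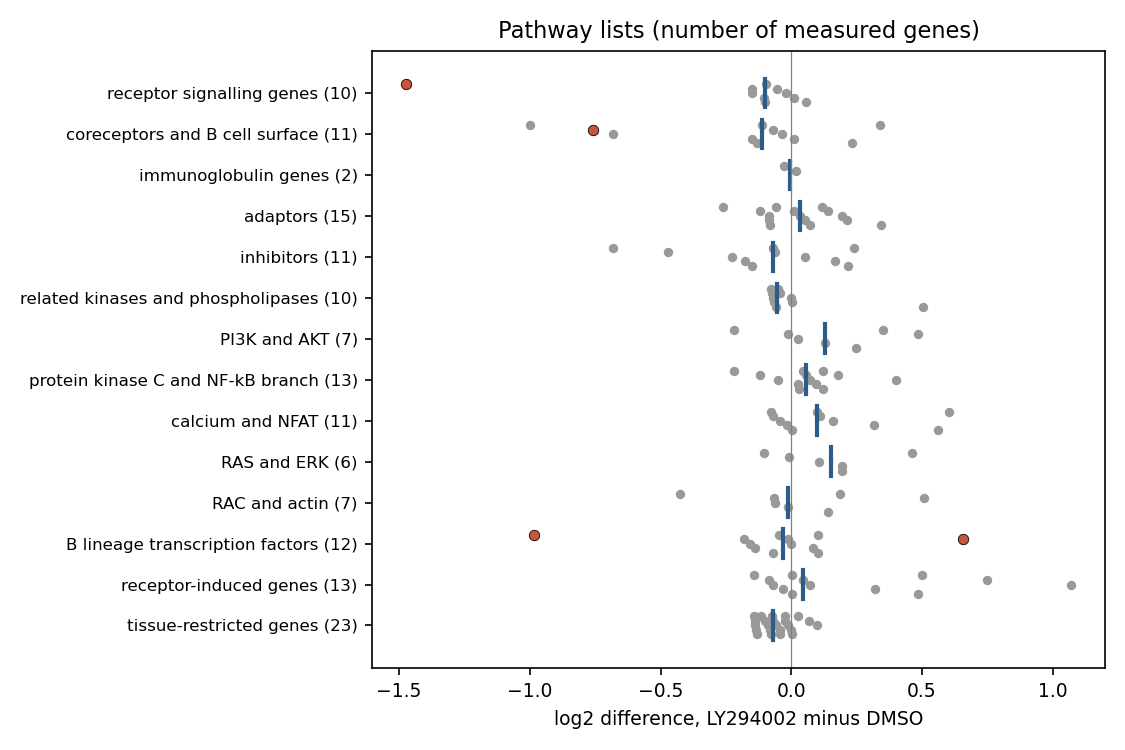
Log2 difference of LY294002 minus DMSO (horizontal axis) for each measured gene of the receptor signalling genes, the 12 pathway lists and the organ-restricted genes; red points passed the limma threshold and blue bars are list medians. BLNK at -1.48 stands apart from the other 9 receptor signalling genes, and the medians of all lists lie between -0.11 and 0.15.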

How the data were processed

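The deposited table holds log2 probe set values of 5 Affymetrix arrays, which the authors computed with affy, an R package named by the submitters' processing notes. Which background correction, summary method and version they used is not given in the sources. The values were used as deposited. Of 8793 probe sets, 47 controls were left out. Genes were named from the platform annotation: 7840 probe sets had 1 symbol, 388 several and 518 none, and those without 1 symbol stayed in the fit unnamed. The probe set with the highest mean stood for a gene.

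LY294002 was compared with DMSO by limma 3.58.1 in R 4.3.3 (lmFit and eBayes, group as the only term, 3 residual degrees of freedom), with Benjamini-Hochberg adjustment over 8746 probe sets and a threshold of 0.05. Errors of differences are standard errors of this fit. Precision is limited by the number of arrays. The fit was tested on simulated data. Identical values on arrays of 1 group occur in 38.0% of probe sets and in 5 of the 10 genes.

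The genes, the lists and the tests were chosen with earlier results of these data known. Named are the 10 genes, up to 3 passing genes of each list, the 5 genes nearest to BLNK, and SPIB, PAX5, EBF1, MS4A1, CR2, LCP2, ZAP70, PLCG1, PIK3CD, INPP5D and PTPN6. LAT2, FCGR2B, FYN, PPP3CA, PPP3CB and IER3 are not covered by this rule and were picked with their values known, and a few more genes stand as examples of a list. A total of 15 alternatives were run. Promoter sequences are from RefSeq on GRCh38.p14. Plots were made in Python 3.11.15 using matplotlib 3.10.9.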

Additional observations from a re-analysis of the deposited data

How the results depend on the processing

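BLNK kept its direction under all 15 alternatives, from -1.57 to -1.35 on the log2 scale, and passed under 7 of them. Its call was lost with array weights (-1.52, limma adjusted p = 0.0885), without variance moderation (-1.48, 0.276), with the replicate number as a block (-1.51, 0.348) and without any 1 array (-1.57 to -1.35, 0.0935 to 0.199), so that 0 of the 10 genes passed there. The other 9 genes passed under none of the alternatives they could be fitted in. Without any 1 array CD79A ranged from -0.046 (without LY294002 replicate 2, a change of sign) to 0.16, and SYK turned to 0.0043 after cyclic loess. With the 40th percentile as the limit, 5 genes were in the low class instead of 10.

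For the wider pathway and for all genes, 3 and 70 passed. These counts were 1 and 17 with array weights, 9 and 264 after cyclic loess, 9 and 299 after quantile normalization, 5 and 147 after median centring, 7 and 203 without the dimmest 40% of probe sets, and 15 and 510 without probe sets that repeat a value within a group, a step that removes probe sets of low spread. The genes gained in the wider pathway included MS4A1 and IER3 in these last 5 settings, FYN in all but median centring, INPP5D after cyclic loess, quantile normalization and the removal of tied probe sets, and PPP3CB in the same 3. They were 0 and 1 without variance moderation, 0 and 0 with the replicate block, and 0 and 0 to 4 without any 1 array. At an unadjusted p under 0.05 the block left 820 genes, and the fits without 1 array 946 to 2085. The cause of these changes was not tested.

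Replicate numbers are shared by 2 arrays of each group. The deviations of same-numbered arrays from their group means correlated at 0.0021 for number 1 and -0.21 for number 2. With 2 LY294002 arrays the deviations of 1 mirror those of the other, so these values cannot show or exclude a pairing. The main fit treats the arrays as unpaired, and the block is given as an alternative. The block has the value of the fit without DMSO replicate 3, which it absorbs. With 5 arrays and no detection calls, signal over background limits what can be said of the genes in the low class.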
